A study of Homo sapiens with 14 samples.

Results

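Nascent transcription of 10 circadian clock genes was described across 14 precision run-on sequencing (PRO-seq) libraries of A549 cells, a human lung adenocarcinoma line. The genes were taken by symbol from a deposited count table of 58780 genes: PER1, PER2, PER3, CRY1, CRY2, NR1D1, NR1D2, DBP, BHLHE40 and CLOCK. Each symbol matched 1 row, and all 10 passed the expression filter that kept 21910 genes for testing. The libraries form 7 groups of 2. Cells were left untreated, or were given 1 µM GSK591, an inhibitor of the arginine methyltransferase PRMT5, or 1 µM MS023, an inhibitor of type I arginine methyltransferases, for 15 min or for 3 h. Further cells received either inhibitor together with 100 nM dexamethasone (Dex), a synthetic glucocorticoid, for 15 min. Every group, the untreated one included, was in 0.01% DMSO. The untreated cells carry the 15 min label, so time in culture and inhibitor cannot be told apart in a comparison of 3 h with untreated. Cells given Dex without an inhibitor are not analysed here, so each Dex effect below is Dex added to an inhibitor. The study asked how nascent transcription responds to the 2 classes of methyltransferase inhibitor and to the glucocorticoid.

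The circadian clock is a transcriptional feedback loop in which CLOCK, paired with ARNTL, binds E-box elements and activates the PER and CRY genes, whose protein products then repress that pair. NR1D1 and NR1D2 encode REV-ERB nuclear receptors that repress ARNTL, DBP encodes an output activator that binds D-box elements, and BHLHE40 encodes a repressor that binds E-boxes. Glucocorticoids act through the glucocorticoid receptor, a ligand-activated transcription factor, and are known to reset clocks in peripheral tissues, with PER1 a well-known target.

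PRO-seq labels RNA held by engaged polymerases, so the counts describe transcription under way and not the stored mRNA. Total counts per library ran from 5768312 to 9606938, and mitochondrially encoded genes took 39.8% to 58.0% of them. The log2 CPM of replicates had a Pearson correlation across genes between 0.965 and 0.983. No replicate pair was as alike as counting error alone allows: the chi-square statistic divided by its degrees of freedom lay between 2.00 and 13.4, and was highest for GSK591 with Dex. The labels do not say that replicates came from separate cultures, so the p-values measure the spread between these libraries, which may be technical. Of the A549 markers, KRT8, KRT18, AKR1B10 and AKR1C1 had medians of 141 to 307 CPM over the libraries, while EPCAM had 2.82 CPM. The immune markers PTPRC and CD3E had medians of 0 CPM and the endothelial markers PECAM1 and CDH5 of 0.328 and 0.437 CPM. The fibroblast marker COL1A1 had a median of 6.68 CPM and COL3A1 of 0.501 CPM.

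In untreated cells, levels are given as CPM (counts scaled to a common library size, with TMM factors) per kb of annotated exon, so that genes of different length can be set side by side. BHLHE40 was the highest, at 50.0 ± 1.0 CPM per kb (SD, n = 2 for each gene here). DBP followed at 13.4 ± 0.18, NR1D1 at 7.61 ± 0.26 and PER1 at 3.99 ± 0.21 CPM per kb. PER2 at 2.28 ± 0.15, CRY1 at 2.24 ± 0.013 and CLOCK at 2.16 ± 0.25 CPM per kb were neighbours whose libraries overlapped. CRY2 stood at 1.62 ± 0.18, NR1D2 at 1.26 ± 0.24 and PER3 at 0.610 ± 0.093 CPM per kb. Outside the PER2, CRY1 and CLOCK group, no 2 neighbours in this order had overlapping libraries. With gene span as the denominator the first 5 places were unchanged, CRY1 moved from place 6 to place 9, and PER3 stayed last. These levels rest on few counts for some genes, with 41 and 50 counts in the untreated libraries for PER3 and 59 and 76 for NR1D2, against 1811 and 1728 for BHLHE40.

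Promoter sequence is shown for the 4 genes that changed in some comparison, because 3 of them rose together with Dex and the fourth fell. The windows are those of RefSeq on GRCh38.p14 and run from 250 bases before a gene's start to 50 after it. There were 14 windows for the 10 genes. Letters are given 5′ to 3′ on the gene's own strand, and capitals mark matches, on either strand, to the motifs spelled out below. The stretches are the first 210 bases of the window of PER1 (chr17:8152445-8152654, minus strand), of PER2 (chr2:238288651-238288860, minus strand) and of the second start of NR1D2 (chr3:23945871-23946080, plus strand), none of which lies in an annotated exon. For BHLHE40 the first 30 bases of the window are given (chr3:4979187-4979216, plus strand), which lie in an exon annotated from an earlier start.
PER1: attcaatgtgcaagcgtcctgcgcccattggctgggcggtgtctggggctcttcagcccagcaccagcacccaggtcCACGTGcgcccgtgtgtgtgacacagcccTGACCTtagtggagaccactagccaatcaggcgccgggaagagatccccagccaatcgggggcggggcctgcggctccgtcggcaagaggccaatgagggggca
PER2: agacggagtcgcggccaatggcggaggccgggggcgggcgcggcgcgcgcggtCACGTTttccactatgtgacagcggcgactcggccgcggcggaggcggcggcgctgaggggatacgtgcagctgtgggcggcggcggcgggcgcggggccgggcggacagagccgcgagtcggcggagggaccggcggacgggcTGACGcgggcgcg
NR1D2: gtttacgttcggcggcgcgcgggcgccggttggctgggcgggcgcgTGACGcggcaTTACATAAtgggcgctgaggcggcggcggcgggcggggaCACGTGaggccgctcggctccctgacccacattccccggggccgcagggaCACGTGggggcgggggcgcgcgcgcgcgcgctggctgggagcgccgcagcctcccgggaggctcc
BHLHE40: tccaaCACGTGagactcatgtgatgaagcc

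The E-box CACGTG, the core site of CLOCK and ARNTL, was found in windows of 3 of the 10 genes: 173 bases before the start of PER1, 245 before that of BHLHE40, and 155 and 105 before the second start of NR1D2. It occurs in 7.26% of all 35116 RefSeq windows. The E-prime box CACGTT, found in 5.34% of windows, had a match in PER2 (197 bases before the start), CRY1, CRY2, NR1D1 and CLOCK. The glucocorticoid receptor hexamer AGAACA, found in 14.79% of windows, had a match in BHLHE40 alone among the 10, 153 bases before the start. The full palindromic glucocorticoid response element had no match in the 14 windows and 1 among all 35116. The D-box forms TTATGTAA and TTACGTAA (0.89% and 0.13% of windows) matched in PER3 and NR1D2 and in PER2, respectively. The CRE core TGACG (24.55% of windows) matched in PER2, CRY1, CRY2, NR1D2 and CLOCK, and the full CRE TGACGTCA (1.85%), which contains it, in none of the 10. The ROR core AGGTCA (13.83%) matched in PER1 and CRY2, and DBP had no match to any motif searched. Counted by window, like the percentages, matches were in 3 of the 14 for the E-box, 5 for the E-prime box and 1 for AGAACA. They were in 2 and 1 for the D-box forms, 7 for the CRE core and 3 for the ROR core. These matches are descriptions of short windows, and a missing match says nothing about sites elsewhere.

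Across 14 comparisons, 4 of the 10 clock genes (PER1, PER2, NR1D2 and BHLHE40) were called at least once. The other 6 (PER3, CRY1, CRY2, NR1D1, DBP and CLOCK) were not called in any. The share of all genes called at least once was not counted, so the pooled count has no background and shares are given by comparison. The genes were chosen with earlier results of these data known, so the shares describe them and are no test of the set. A gene was called at an adjusted p under 0.05 in edgeR's quasi-likelihood test, with the adjustment over all 21910 genes. Dex added to MS023 raised PER1, PER2 and NR1D2 and lowered BHLHE40, so 4 of 10 were called, against 8.97% of all genes (5.9% higher and 3.07% lower). Dex added to GSK591 raised PER1 and lowered BHLHE40, so 2 of 10 were called, against 3.7% of all genes (1.43% higher and 2.27% lower). After 3 h of either inhibitor PER1 and BHLHE40 were both below untreated: 2 of 10 were called beside a background of 11% for GSK591 (7.25% higher, 3.79% lower) and 7.63% for MS023 (5.4% higher, 2.23% lower). The median log2 fold change of the 10 genes was 0.08 with Dex beside GSK591 and 0.11 beside MS023, where the medians of all genes were 0.00 and -0.02. At 3 h it was -0.11 for GSK591 and -0.17 for MS023, beside -0.01 for all genes in both. In bulk libraries, fewer cells transcribing a gene and less transcription per cell cannot be told apart.

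**Figure D1:**
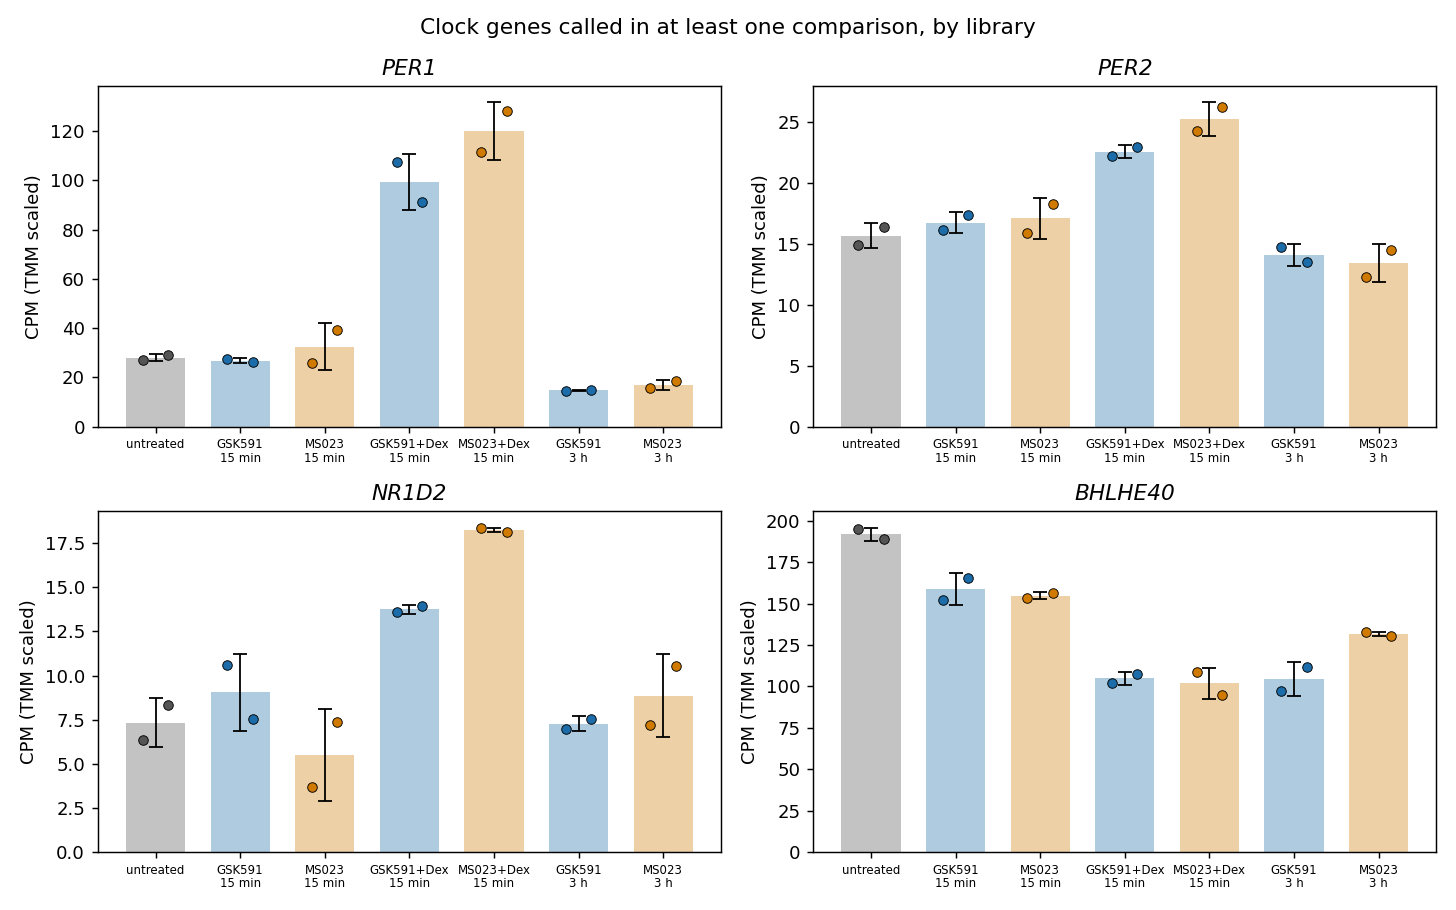
Normalised level (CPM on TMM-scaled library sizes, linear axis from 0) of PER1, PER2, NR1D2 and BHLHE40 in each of the 14 libraries. Points are libraries, bars are group means and error bars are SD (n = 2). The 4 Dex libraries are the highest for PER1, PER2 and NR1D2, and both untreated libraries are the highest for BHLHE40.

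PER1, a repressor of CLOCK and ARNTL and a known glucocorticoid target (chr17:8140472-8156506, GRCh38, minus strand), had the largest rise with Dex among the 10. Its levels were 26.9 and 29.0 CPM in untreated cells, 27.4 and 26.1 CPM with GSK591 for 15 min, and 25.6 and 39.2 CPM with MS023 for 15 min. With Dex added they were 107 and 91.2 CPM beside GSK591 and 112 and 128 CPM beside MS023. All 4 Dex libraries stood above all 10 others, whose highest was the second MS023 15 min library. The rise was 3.71-fold beside GSK591 (log2 1.89 ± 0.13 SE, adjusted p = 7.7e-14) and 3.77-fold beside MS023 (log2 1.91 ± 0.12 SE, adjusted p = 1e-14). The difference between these log2 effects was -0.02, with a 95% interval from -0.39 to 0.34, and was not called.

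At 3 h PER1 went the other way. Its levels were 14.6 and 14.8 CPM with GSK591 and 15.6 and 18.4 CPM with MS023, and all 4 libraries stood below the other 10, whose lowest had 25.6 CPM. Against untreated cells the log2 fold change was -0.93 ± 0.15 SE with GSK591 (adjusted p = 2.6e-05) and -0.73 ± 0.15 SE with MS023 (adjusted p = 0.00099). Against the same inhibitor at 15 min, which shares no untreated library, it fell by 0.87 ± 0.15 with GSK591 (adjusted p = 0.00028) and by 0.91 ± 0.15 with MS023 (adjusted p = 3.1e-05). Without the first MS023 3 h library the log2 fold change from untreated was -0.60 and its adjusted p was 0.07. Without the second MS023 15 min library the fall from 15 min of MS023 had a log2 fold change of -0.60 (adjusted p = 0.015). The genes whose exons overlap those of PER1, MIR6883 and AC129492.3, had 0 counts in every library.

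PER2, a second period repressor (chr2:238244038-238290102, minus strand), moved in the same direction with Dex, but less. It stood at 14.9 and 16.4 CPM in untreated cells, at 16.1 and 17.4 CPM with GSK591 and at 15.9 and 18.3 CPM with MS023 for 15 min. With Dex it reached 22.2 and 23.0 CPM beside GSK591 and 24.3 and 26.3 CPM beside MS023. The 4 Dex libraries did not overlap the 10 others, which ran from 12.3 to 18.3 CPM. Dex beside MS023 raised PER2 1.49-fold (log2 0.57 ± 0.14 SE, adjusted p = 0.0039). Beside GSK591 the log2 fold change was 0.43 ± 0.14 SE, with an adjusted p of 0.084, and was not called. The 2 effects differed by -0.15 on the log2 scale, with a 95% interval from -0.54 to 0.25, so the call beside one inhibitor is not shown to be particular to it.

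The PER2 calls were less firm than those of PER1. Beside MS023 the adjusted p was 0.17 without the first MS023 15 min library (log2 0.47), 0.071 without the second MS023 with Dex library (log2 0.52), and 0.13 with library size alone (log2 0.39). GSK591 with Dex against untreated was called (log2 0.53 ± 0.14 SE, adjusted p = 0.018), but leaving out any 1 of its 4 libraries gave adjusted p values from 0.059 to 0.23, and DESeq2 gave 0.11. The GSK591 with Dex call was also lost with library size alone, with nuclear library size alone and with no count filter. MS023 with Dex against untreated was called with a log2 fold change of 0.69 ± 0.13 SE (adjusted p = 5e-04). That MS023 call was kept in all 11 alternatives. At 3 h PER2 had 14.8 and 13.5 CPM with GSK591 and 12.3 and 14.5 CPM with MS023, all below both untreated libraries, without passing the test (log2 -0.15 and -0.23).

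PER3, the third period gene, was the lowest of the 10 and had between 4.11 and 6.74 CPM in the 14 libraries, with a median of 5.09. Its log2 fold changes lay between -0.34 and 0.26, the intervals were wide at 33 to 59 counts, and the smallest adjusted p was 0.64. Exons of UTS2 and Z98884.1 on the opposite strand cover 16.67% of the PER3 exons, and neither passed the expression filter.

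The cryptochromes CRY1 and CRY2, which act with the period proteins, were not called in any comparison. CRY1 ranged from 7.96 to 13.0 CPM over the libraries with a median of 11.4. Its lowest values were at 3 h, with 9.28 and 8.95 CPM for GSK591 and 7.96 and 12.1 CPM for MS023, beside 11.3 and 11.4 CPM in untreated cells. The GSK591 libraries at 3 h lay below both untreated ones, with a log2 fold change of -0.31 ± 0.18 SE and an adjusted p of 0.29. CRY2 had 17.3 and 9.49 CPM in the GSK591 with Dex libraries, of which the first was the highest of all 14 and the second lay inside the range of the libraries without Dex, 8.61 to 11.4 CPM. Its log2 fold change with Dex beside GSK591 was 0.47 ± 0.20 SE (adjusted p = 0.21). Without the second of those libraries it was 0.84 (adjusted p = 0.016), and without the first it was -0.04 (adjusted p = 0.96). That second library also had the highest mitochondrial share of the 14, 58.0%, and its part in the CRY2 values was not tested.

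**Figure D2:**
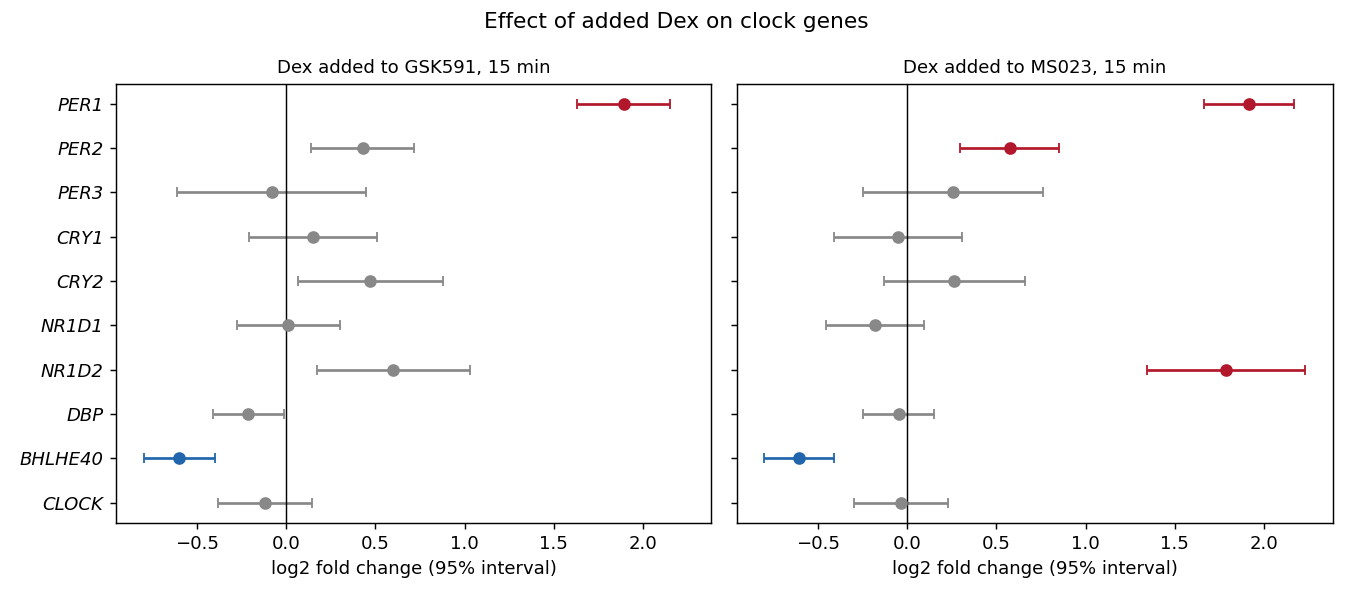
Log2 fold change with Dex added to GSK591 (left) and to MS023 (right) for the 10 clock genes, with 95% intervals from edgeR (2 libraries per group). Red marks genes called higher, blue called lower and grey not called. PER1 is near 1.9 in both panels, and NR1D2 is at 0.60 on the left and 1.79 on the right.

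NR1D2, encoding REV-ERB beta (chr3:23945260-23980618, plus strand), was the second clock gene by size of the Dex effect beside MS023. Its levels were 6.35 and 8.32 CPM in untreated cells, 10.6 and 7.51 CPM with GSK591 and 3.68 and 7.36 CPM with MS023 for 15 min. With Dex they were 13.6 and 13.9 CPM beside GSK591 and 18.3 and 18.2 CPM beside MS023. The 4 Dex libraries stood above all 10 others, and the first MS023 15 min library was the lowest of the 14. Dex beside MS023 raised NR1D2 3.45-fold (log2 1.79 ± 0.22 SE, adjusted p = 1.6e-07), a call kept in all 11 alternatives, with log2 values from 1.31 to 2.31. Dex beside GSK591 gave 1.52-fold (log2 0.60 ± 0.21 SE, adjusted p = 0.11), which was not called.

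The Dex effect on NR1D2 was smaller beside GSK591 than beside MS023 by 1.19 on the log2 scale (difference -1.19 ± 0.31 SE, 95% interval -1.81 to -0.56, adjusted p = 0.044). It was the 1 clock gene of 10 called for this difference, beside 1.15% of all genes. The starting levels differed as well as the levels reached. At 15 min without Dex, GSK591 stood above MS023 by a log2 fold change of 0.78 ± 0.25 SE (adjusted p = 0.15). With Dex it stood below, with a log2 fold change of -0.41 ± 0.19 SE (adjusted p = 0.63), and neither was called. The difference in Dex effects was lost on leaving out the first MS023 15 min library (-0.71, adjusted p = 0.59), which had 34 counts, or the first GSK591 15 min library (-0.91, adjusted p = 0.41). It was also lost without the second GSK591 with Dex library (-1.21, adjusted p = 0.076), the first MS023 with Dex library (-1.18, adjusted p = 0.11) or the second (-1.20, adjusted p = 0.16). DESeq2 gave -1.16 with an adjusted p of 0.22.

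Against untreated cells NR1D2 was higher with either combination. The log2 fold change was 1.31 ± 0.20 SE for MS023 with Dex (adjusted p = 1.2e-05) and 0.91 ± 0.22 SE for GSK591 with Dex (adjusted p = 0.0064). Without the first untreated library the GSK591 value was 0.72 (adjusted p = 0.19). At 3 h NR1D2 had 6.96 and 7.56 CPM with GSK591 and 7.20 and 10.5 CPM with MS023, which overlapped the untreated range. MS023 at 3 h was called above MS023 at 15 min (log2 0.72 ± 0.25 SE, adjusted p = 0.049), although the 2 groups overlapped. Without the first MS023 15 min library that value was 0.25 (adjusted p = 0.70), without the second 1.25 (adjusted p = 0.0044), and without the second MS023 3 h library 0.47 (adjusted p = 0.41). No other annotated gene shares exons with NR1D2.

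NR1D1, encoding the related receptor REV-ERB alpha, did not share this pattern in the calls. It ranged from 15.3 to 23.14 CPM with a median of 20.2, and the 4 Dex libraries, at 18.7 to 22.4 CPM, lay inside the range of the others. Its log2 fold changes over the 14 comparisons lay between -0.28 and 0.19, and the smallest adjusted p was 0.20, for GSK591 at 3 h. Exons of THRA on the opposite strand cover 9.49% of those of NR1D1. The strand setting of the counts is not given in the sources used here, and THRA itself was not called in any comparison with untreated cells.

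BHLHE40, the E-box repressor (chr3:4979116-4985323, plus strand), was the 1 clock gene called lower with Dex. Untreated cells had 195 and 189 CPM, and all 12 treated libraries lay below them, between 95.1 and 166 CPM. At 15 min its levels were 152 and 166 CPM with GSK591 and 153 and 156 CPM with MS023, and with Dex added they were 102 and 108 CPM beside GSK591 and 109 and 95.1 CPM beside MS023. The groups with and without Dex did not overlap for either inhibitor. With Dex its log2 fold change was -0.60 ± 0.10 SE beside GSK591 (adjusted p = 0.00011) and -0.60 ± 0.10 SE beside MS023 (adjusted p = 2.3e-05). The difference between the effects was 0.01, with a 95% interval from -0.27 to 0.28. Both calls were kept in all 11 alternatives.

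With either inhibitor for 15 min and no Dex, BHLHE40 had log2 fold changes of -0.27 ± 0.09 SE (GSK591, adjusted p = 0.36) and -0.31 ± 0.09 SE (MS023, adjusted p = 0.25) against the same 2 untreated libraries. Neither passed in the fit of all groups. For MS023 the value was -0.47 (adjusted p = 0.0086) when libraries were scaled by nuclear counts alone, which moved the all-gene median to -0.16. It was -0.31 (adjusted p = 0.049) when the 2 groups were fitted alone. None of the 10 clock genes was called at 15 min by edgeR with either inhibitor, beside 0.306% of all genes for GSK591 and 0.183% for MS023. At an unadjusted p under 0.05 the count was 1 of 10 for each, BHLHE40. At that threshold 1501 of all 21910 genes passed for GSK591 and 1770 of 21910 for MS023. DESeq2 called 0 of 10 clock genes for each.

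At 3 h BHLHE40 had 97.5 and 112 CPM with GSK591 and 133 and 131 CPM with MS023. It fell from untreated by 0.88 ± 0.10 (SE) on the log2 scale with GSK591 (adjusted p = 1.3e-08) and by 0.54 ± 0.10 with MS023 (adjusted p = 8.8e-05). From 15 min to 3 h it fell by 0.60 ± 0.10 with GSK591 (adjusted p = 7e-05). The same step with MS023 gave a log2 fold change of -0.23 ± 0.10 SE (adjusted p = 0.11). At 3 h the GSK591 libraries lay below the MS023 ones by a log2 fold change of -0.33 ± 0.10 SE, which did not pass adjustment over all genes (adjusted p = 0.49, 95% interval -0.53 to -0.13). BHLHE40-AS1, an antisense gene sharing 4 exonic bases with BHLHE40, had log2 fold changes of -0.66 ± 0.22 SE (adjusted p = 0.094) and -0.69 ± 0.21 SE (adjusted p = 0.027) with Dex beside GSK591 and MS023. Its part in the BHLHE40 counts was not tested.

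From 15 min to 3 h, 2 of the 10 were called with GSK591 (PER1 and BHLHE40, lower), against 6.41% of all genes, and 2 with MS023 (PER1 lower, NR1D2 higher), against 12%. Against untreated cells, PER1, PER2 and NR1D2 were higher and BHLHE40 lower with either inhibitor plus Dex, so 4 of 10 were called in each, against 5.85% of all genes for GSK591 with Dex and 7.66% for MS023 with Dex. In these comparisons PER1 had log2 fold changes of 1.83 ± 0.13 SE and 2.10 ± 0.12 SE and BHLHE40 of -0.87 ± 0.10 SE and -0.91 ± 0.10 SE. The PER2 call for GSK591 with Dex was lost in several alternatives, as described for that gene. All comparisons with untreated cells share the same 2 untreated libraries, so they are not independent of each other.

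**Figure D3:**
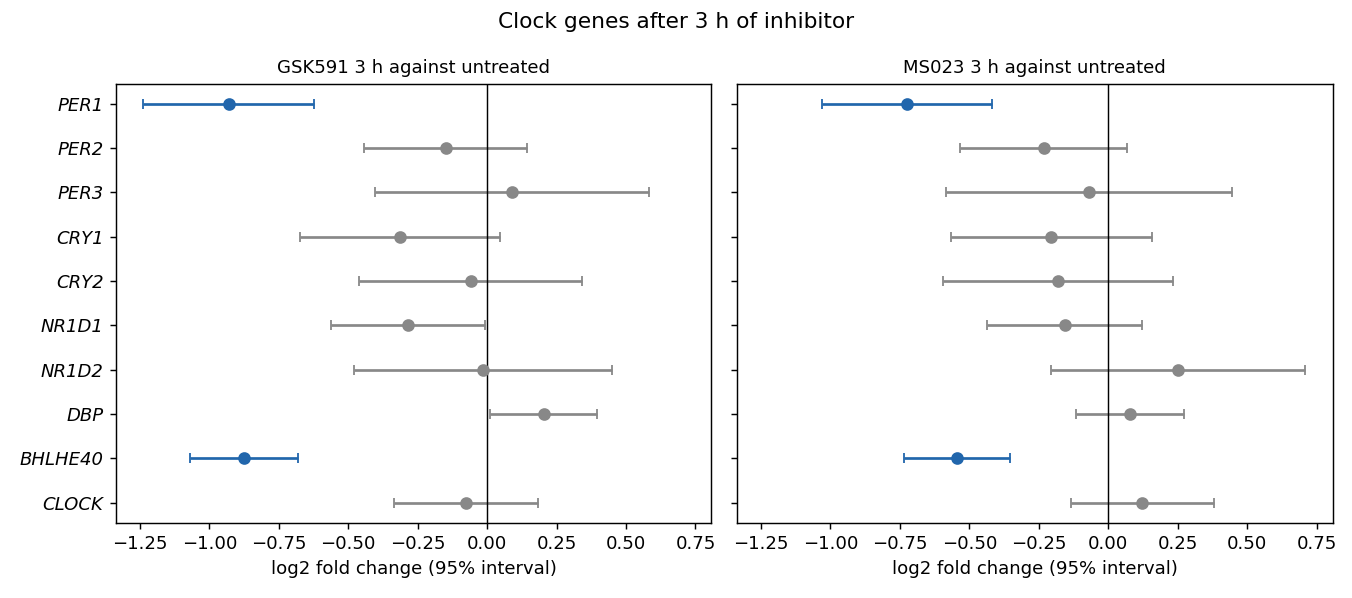
Log2 fold change of the 10 clock genes after 3 h of GSK591 (left) or MS023 (right) against untreated cells, with 95% intervals from edgeR (2 libraries per group). Blue marks genes called lower and grey genes not called, and no gene was called higher. PER1 and BHLHE40 are the called genes in both panels, at -0.93 and -0.88 for GSK591 and -0.73 and -0.54 for MS023.

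DBP, the D-box activator and a clock output gene, had no call. It ranged from 73.8 to 103 CPM, with a median of 85.8. The 4 libraries at 3 h had 91.4 to 103 CPM. The 4 with Dex had 73.8 to 84.3 CPM, below both untreated libraries at 86.6 and 88.2 CPM. At 15 min without Dex it had 98.2 and 85.1 CPM with GSK591 and 81.8 and 83.6 CPM with MS023. Those MS023 libraries lay inside the range of the Dex libraries. Dex gave a log2 fold change of -0.21 ± 0.10 SE beside GSK591 (adjusted p = 0.26) and -0.05 ± 0.10 SE beside MS023 (adjusted p = 0.85). GSK591 for 3 h against untreated gave 0.20 ± 0.10 SE (adjusted p = 0.18). With nuclear counts alone as the scale, GSK591 with Dex against untreated was called, with a log2 fold change of -0.30 (adjusted p = 0.045). The all-gene median of that comparison was then -0.14. Exons of SPHK2 on the opposite strand cover 10.1% of those of DBP, and SPHK2 was not called in these comparisons.

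CLOCK, the activator itself, ranged from 23.21 to 31.4 CPM with a median of 26.3, and every treatment class overlapped the untreated values of 23.34 and 27.5 CPM. Its log2 fold changes lay between -0.25 and 0.17 and the smallest adjusted p was 0.28. Exons of TMEM165 on the opposite strand cover 0.65% of the CLOCK exons. TMEM165 rose with Dex beside MS023 by a log2 fold change of 1.22 ± 0.15 SE (adjusted p = 7.4e-08). TMEM165 was also called higher in other comparisons, among them 3 h of GSK591 (0.82 ± 0.14 SE) and of MS023 (0.92 ± 0.14 SE) against untreated cells. Its part in the CLOCK counts was not tested.

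**Figure D4:**
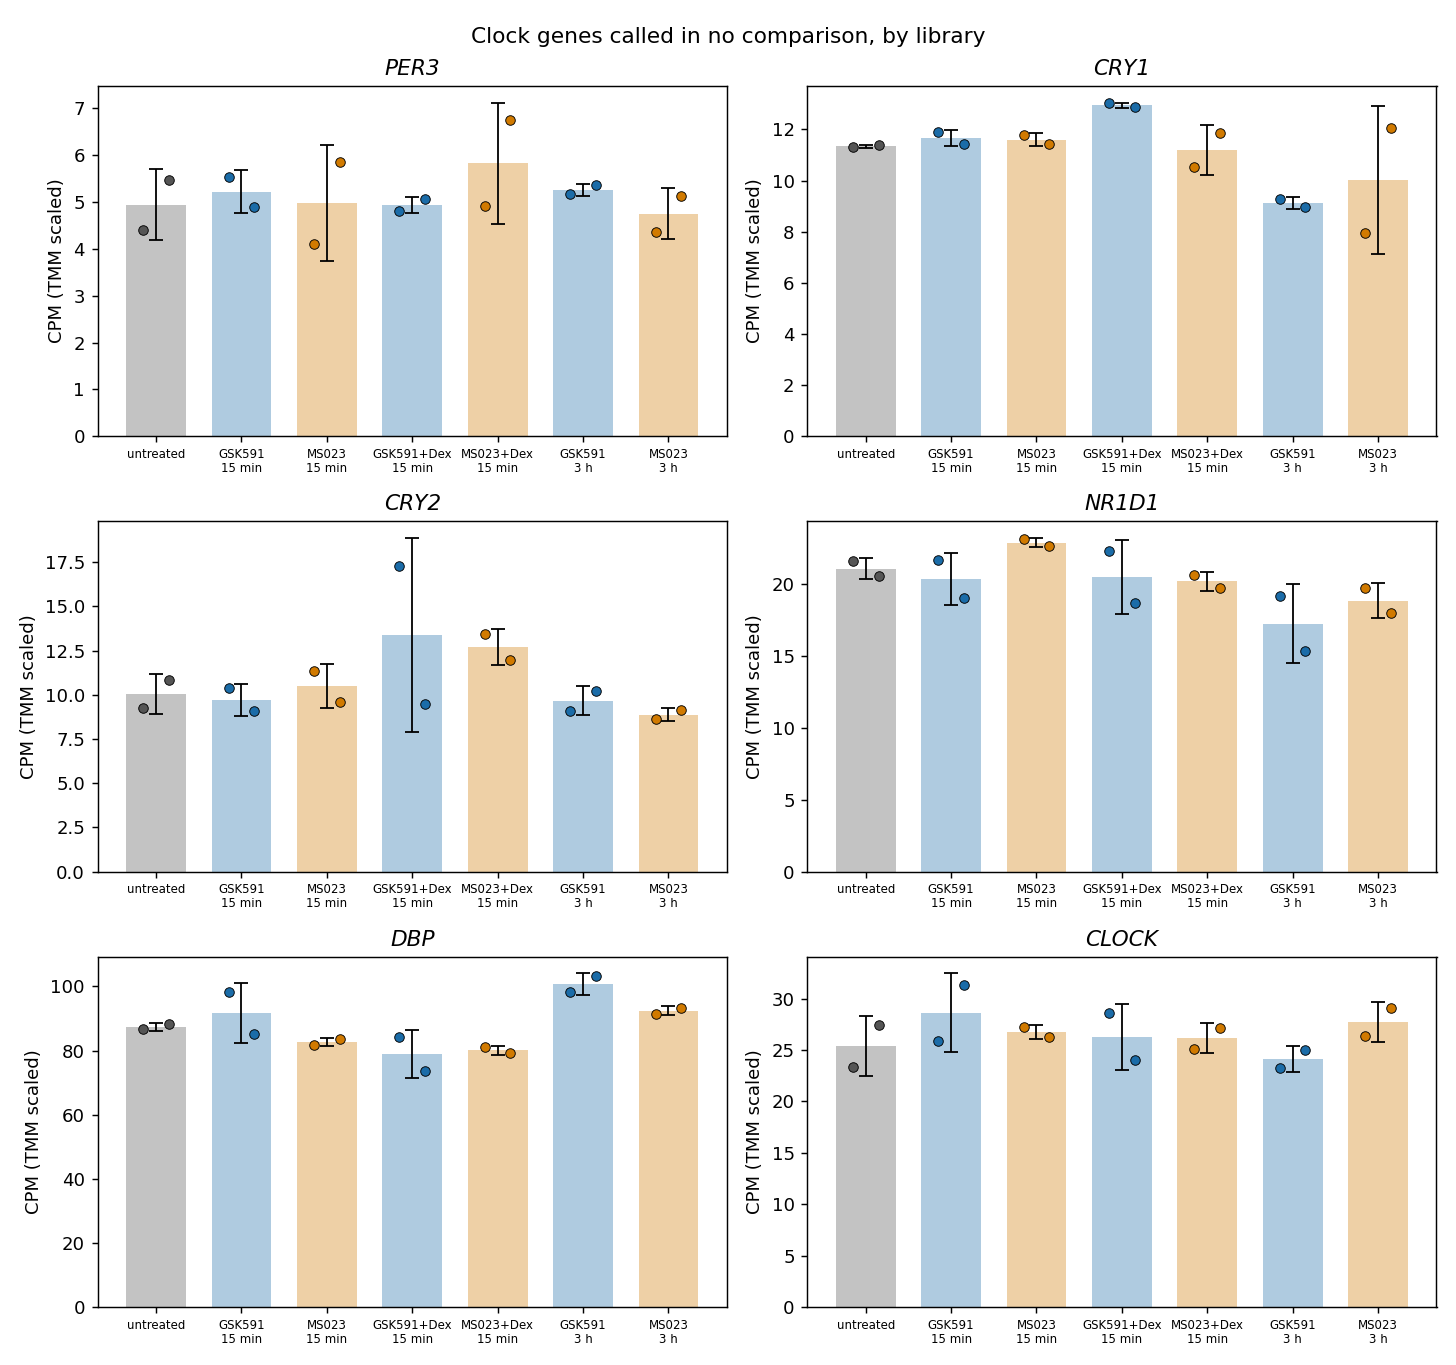
Normalised level (CPM on TMM-scaled library sizes, linear axis from 0) of the 6 clock genes called in no comparison, by library. Points are libraries, bars are group means and error bars are SD (n = 2). The CRY2 replicates given GSK591 with Dex are far apart, at 17.3 and 9.49 CPM, and CLOCK stays between 23.21 and 31.4 CPM.

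The inhibitors were also set against each other at matched dose and time, in 30 tests of the 10 genes at 15 min, at 15 min with Dex, and at 3 h. edgeR called 0 of 10 in each setting, beside 1.09% of all genes at 15 min and 0% both with Dex and at 3 h. At an unadjusted p under 0.05 these settings gave 1, 2 and 1 of 10, and DESeq2 called 0 of 10 in each. Over all 21910 genes, 2137 at 15 min, 1659 with Dex and 1319 at 3 h had an unadjusted p under 0.05. With Dex, PER1 was lower beside GSK591 by a log2 fold change of -0.27 (95% interval -0.50 to -0.05, adjusted p = 0.58). Over the 10 genes, the lowest and highest limits of the 95% intervals were -0.54 and 1.27 at 15 min on the log2 scale. They were -0.79 and 0.57 with Dex, and -0.73 and 0.67 at 3 h. In each setting the limits came from different genes, and each gene's own interval was narrower. BHLHE40 had -0.16 to 0.23 at 15 min, and DBP had -0.22 to 0.18 with Dex. Differences inside a gene's own interval are not excluded by these libraries. At 15 min NR1D2 was the gene that came nearest, and without the second MS023 15 min library it was called (log2 1.30, adjusted p = 0.012).

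A list of 30 further clock pathway genes covered the CLOCK partners, the ROR receptors, relatives of DBP, kinases, ubiquitin ligases and output genes. Of these, 26 were tested. RORB, CIART and PPARGC1A did not pass the filter, and the symbol FBXL21P matched no gene of the annotation. Dex beside GSK591 called 3 of 26, with KLF9 and WEE1 higher and KLF10 lower, where 3.7% of all genes were called. Beside MS023 it called 4 of 26, with KLF9, WEE1, SIRT1 and PPP1CB higher, where 8.97% of all genes were called. The list's median log2 fold changes were 0.07 and 0.14, where all genes had 0.00 and -0.02. This list, too, was chosen with earlier results of these data known. The CLOCK partners ARNTL, ARNTL2 and NPAS2 were not called with Dex beside either inhibitor.

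KLF9, a zinc-finger factor known as a glucocorticoid target and as an output of the clock, had 7.39 and 7.54 CPM with GSK591 and 18.4 and 25.9 CPM with GSK591 and Dex. With MS023 it had 9.31 and 9.73 CPM, and with MS023 and Dex 22.4 and 32.4 CPM. The Dex groups did not overlap the others, and the log2 fold changes were 1.57 ± 0.19 SE (adjusted p = 3.3e-07) and 1.52 ± 0.17 SE (adjusted p = 3e-08). WEE1, a cell cycle kinase with E-boxes known in its promoter, rose with Dex by a log2 fold change of 0.37 ± 0.11 SE beside GSK591 (adjusted p = 0.047) and 0.94 ± 0.11 SE beside MS023 (adjusted p = 4e-08). The difference between the WEE1 effects was -0.57 ± 0.15 SE (adjusted p = 0.054), and 0 of 26 listed genes were called for that difference by edgeR, beside 1.15% of all genes. At an unadjusted p under 0.05 there were 7 of the 26 and 2360 of all 21910 genes.

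At 3 h against untreated, 6 of the 26 listed genes were called with each inhibitor, beside 11% of all genes for GSK591 and 7.63% for MS023. WEE1, SIRT1 and NOCT were higher and KLF10 lower with both. SIRT1, a deacetylase that acts on clock proteins, went from 27.3 and 30.3 CPM in untreated cells to 70.2 and 72.2 CPM with GSK591 and 66.3 and 70.0 CPM with MS023, and the groups did not overlap. Its log2 fold changes were 1.31 ± 0.12 SE (adjusted p = 1.9e-10) and 1.24 ± 0.12 SE (adjusted p = 9.9e-10). TIMELESS was also called higher with GSK591, and with MS023 ARNTL2 was called higher and BHLHE41, the relative of BHLHE40, lower. BHLHE41 stood at a mean of 2.44 CPM in untreated cells and 0.911 CPM with MS023 at 3 h (log2 fold change -1.49 ± 0.46 SE, adjusted p = 0.035). Against untreated, each combination with Dex called 6 of 26, beside 5.85% of all genes for GSK591 with Dex and 7.66% for MS023 with Dex. KLF9, WEE1, NOCT and SIRT1 were higher and KLF10 lower in both, with CSNK1A1 also higher for GSK591 with Dex and PPP1CB for MS023 with Dex.

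**Figure D5:**
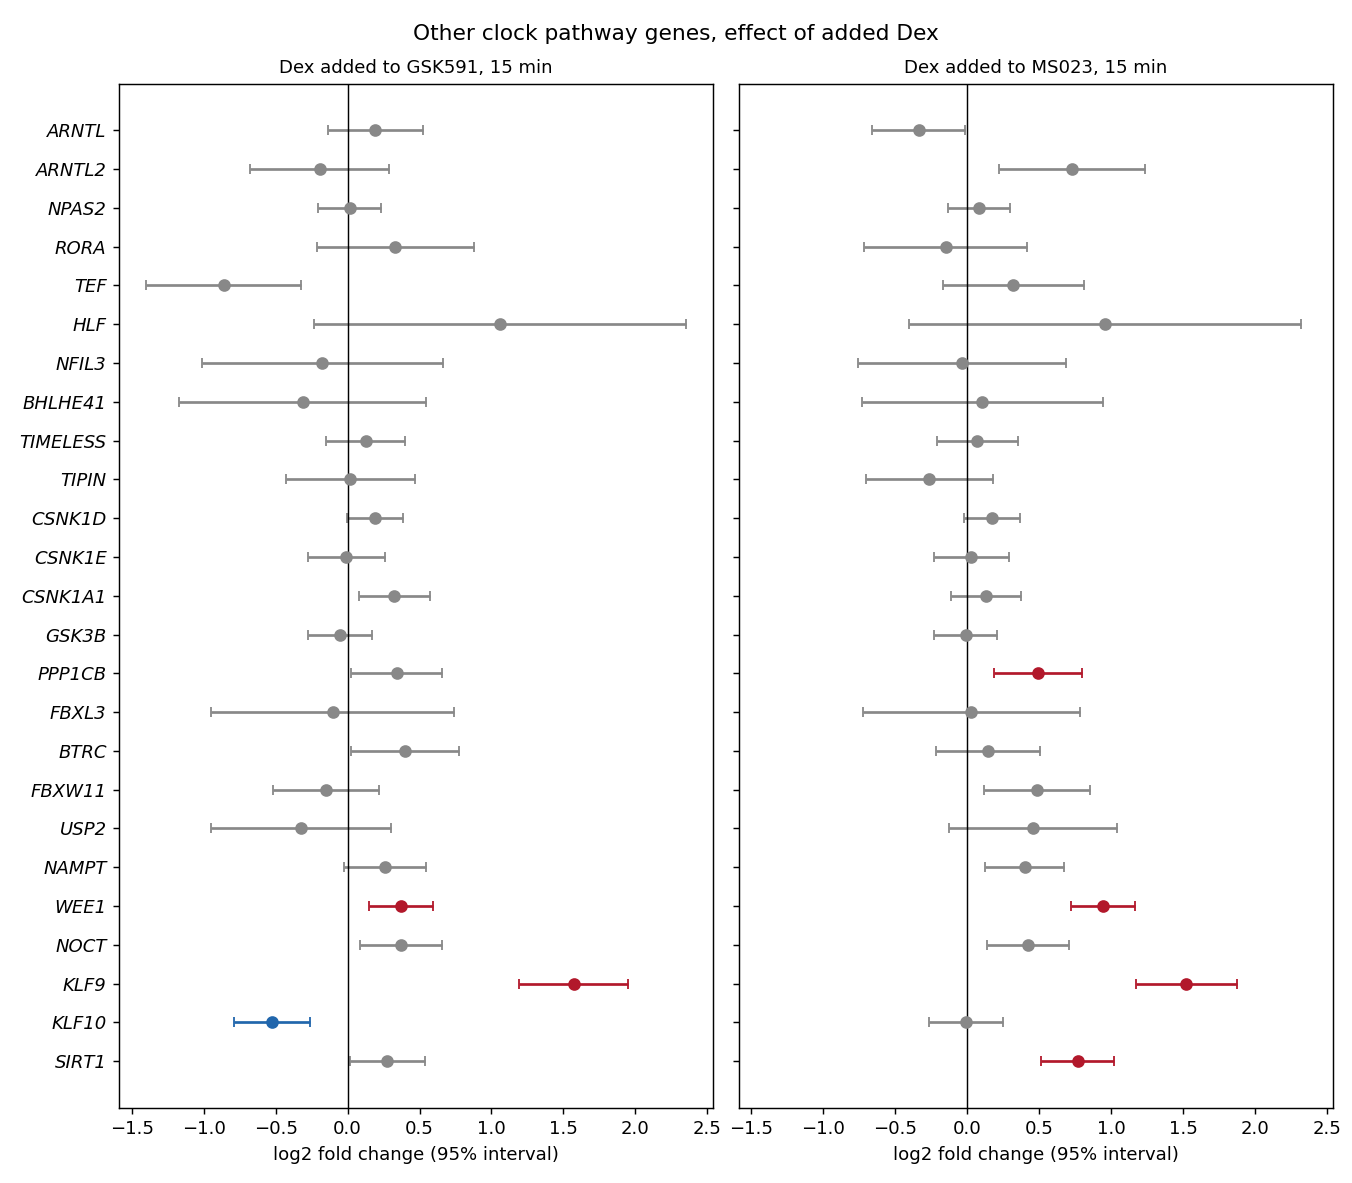
Log2 fold change with Dex added to GSK591 (left) and to MS023 (right) for tested genes of the wider clock pathway, with 95% intervals from edgeR (2 libraries per group). Red marks genes called higher, blue called lower and grey not called. KLF9 is at 1.57 and 1.52 and WEE1 at 0.37 and 0.94.

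Over the 14 libraries the level of PER1 followed that of PER2 with Pearson's r = 0.97 on log2 CPM, while PER1 and NR1D2 had r = 0.76 and PER1 and BHLHE40 had r = -0.41. Among 17468 other genes (mean level 2 CPM or more), the closest to PER1 were TSC22D3 (r = 0.992), MT2A (r = 0.990) and TNFAIP3 (r = 0.986). The closest to PER2 were TNFAIP3 (r = 0.972), AKAP13 (r = 0.968) and TSC22D3 (r = 0.964). NR1D2 was followed most closely by PITPNC1 (r = 0.941), SBF2 (r = 0.936) and SLC22A3 (r = 0.932), and BHLHE40 by C11orf68 (r = 0.938), LRRC75A (r = 0.936) and RNF167 (r = 0.920). These are descriptions over 14 libraries in 7 treatment groups that share scaling and controls.

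In the authors' deposited table for GSK591 with Dex against control, PER1 had a log2 fold change of 1.77 (adjusted p = 2.2e-12) and BHLHE40 of -0.86 (adjusted p = 3.5e-07). In the authors' deposited table for MS023 with Dex the values were 2.05 for PER1 (adjusted p = 3.5e-17) and -0.90 for BHLHE40 (adjusted p = 3.9e-08). PER2 and NR1D2 missed 0.05 in the authors' deposited table for MS023 with Dex, with adjusted p values of 0.23 and 0.077 and log2 fold changes of 0.62 and 1.13. They also missed it in the authors' deposited table for GSK591 with Dex, with adjusted p values of 0.62 and 0.56 and log2 fold changes of 0.45 and 0.72. Over all genes, the authors' deposited tables had 154 under 0.05 for GSK591 with Dex and 238 for MS023 with Dex. The edgeR fit called 1282 and 1679. For PER1 the SE was 0.22 in both of the authors' deposited tables, beside 0.13 and 0.12 in the edgeR fit. For 3 h, the authors' deposited tables gave PER1 -0.98 with GSK591 (adjusted p = 0.0016) and -0.77 with MS023 (adjusted p = 0.035), and BHLHE40 -0.85 (adjusted p = 2.6e-07) and -0.52 (adjusted p = 0.0085). Over all genes, those 3 h tables of the authors had 535 and 359 under 0.05, where the edgeR fit called 2419 and 1672.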

How the data were processed

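Whole-number read counts per gene were used as the authors deposited them. Per the submitters' processing notes, featureCounts 2.0.1 (Subread), DESeq2 and build hg38 were used. The aligner, counting feature, strand setting and handling of duplicates are not given in the sources used here. All 58780 identifiers matched GENCODE release 29 (GRCh38), the source of coordinates and exon lengths. The authors' deposited comparison tables hold log2 fold changes, p-values, test scores and mean signal, per the file headers. That deposited mean signal equals the mean of counts over median-of-ratios size factors (largest relative difference 4.9e-15).

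Counts were tested with edgeR 4.0.16 (R 4.3.3) by quasi-likelihood, with TMM scaling and edgeR's expression filter (21910 genes). The fit held all 14 libraries, with 1 coefficient per group, 7 residual degrees of freedom, 14 contrasts and Benjamini-Hochberg adjustment over all genes. The common biological coefficient of variation was 0.073. No spike-in was used here, so changes are relative to the bulk of genes. Functions were tested on simulated data. DESeq2 1.42.0, other scalings, no count filter, fits of the compared groups alone, a replicate block and leaving out single libraries were alternatives. All 10 clock genes are described. Pathway genes were to be named where called or where a result turns on them, and genes of like pattern are the 3 with the highest r. Members and lists were chosen with earlier results of these data known. Promoters come from RefSeq (GRCh38.p14). Replicate numbers were checked for pairing: in 21 pairs of groups, deviations of same-numbered libraries correlated at -0.07 to 0.10. Some listed genes, called ones included, are not reported here by name, though the list counts hold them.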

Additional observations from a re-analysis of the deposited data

Results flagged for a closer look

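The effect of Dex on NR1D2 differed between the inhibitors by the interaction term of the edgeR fit: beside GSK591 it was smaller than beside MS023, with a difference of -1.19 on the log2 scale (adjusted p = 0.044). The MS023 15 min libraries behind it had 34 and 49 counts of NR1D2, at 3.68 and 7.36 CPM. Over 15 alternatives the difference ran from -1.70 to -0.71 and stayed called in 7.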

How the results depend on the processing

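Of 23 called values among the 10 clock genes, 17 stayed called in every alternative run, 6 lost the call in some and 0 reversed. Of 117 values not called, 5 were called in some alternative. The count of clock genes called for the difference of Dex effects, 1 as reported, was 0 with library size alone, with DESeq2 and with only the compared groups fitted, and 0 to 1 when single libraries were left out. For MS023 at 15 min against untreated, 0 as reported, the count was 1 with nuclear library size alone and with the compared groups alone. For MS023 at 3 h against 15 min, 2 as reported, it was 1 with library size alone, with DESeq2 and with the compared groups alone, and 1 to 2 without single libraries. Leaving out single libraries gave 2 to 4 for GSK591 with Dex against untreated, 1 to 2 for MS023 at 3 h against untreated and 0 to 1 for GSK591 against MS023 at 15 min; the causes were not tested. Library size alone shifted the all-gene median to -0.21 (log2) with Dex beside GSK591 and -0.19 beside MS023. There PER1 had 1.70 beside GSK591 and BHLHE40 -0.81, both still called. The labels do not say whether replicate numbers pair the libraries, and the low correlations of same-numbered deviations over all tested genes cannot exclude it. A fit with the replicate block left all counts of clock genes as reported, for example 2 with Dex beside GSK591 and 4 beside MS023. Depth limits PER3 and NR1D2 most, and with 2 libraries a group small differences cannot be resolved.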
